A study of Drosophila melanogaster with 6 samples.

Results

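The regions described here are the Cyclin G ChIP-seq peaks that lie on unplaced scaffolds of the Drosophila melanogaster build dm6. A scaffold is a stretch of assembled sequence that could not be joined to a chromosome arm, usually because it is made of repeats. Members were all rows of the peak list whose sequence name was not a chromosome arm, the rDNA sequence or the mitochondrial genome. They numbered 1246 of 3363 peaks, or 37.1% of the list, while the scaffolds made up 3.81% of the non-N sequence of the build. They lay on 576 of 1861 scaffolds, so 31.0% of scaffolds held at least 1 peak. Non-N bases inside a peak came to 12.2% of the scaffold sequence (664606 of 5435452 bp).

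The study asked where Cyclin G, a cyclin that acts in transcription, binds the genome of the wing imaginal disc, the larval precursor of the wing. All 6 libraries came from wing discs of female larvae of the third instar raised at 25 °C. The 2 ChIP replicates and their 2 inputs had the genotype UAS-Myc-CycG deltaP, da-Gal4/+, in which the ubiquitous driver da-Gal4 expresses a Myc-tagged Cyclin G lacking its PEST domain, and the 1 mock ChIP and its input were da-Gal4/+ without the tagged protein. Each ChIP pooled the chromatin of 600 discs, 1 from each larva, and the endogenous Cyclin G gene was present in all groups. The list joins both ChIP replicates, gives no height, score or value per sample, and was not called against the mock, so no spread between replicates could be computed and all intervals cover counting error over peaks or scaffolds only. Neighbouring peaks share a scaffold and often a repeat, which makes these intervals too narrow.

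Pericentromeric heterochromatin of the fly is built from satellites, which are short units repeated head to tail over long arrays, and from transposons. One abundant satellite of the X chromosome has a unit of 359 bp and lies in the same heterochromatin as the ribosomal RNA genes (rDNA). R1 and R2 are non-LTR retrotransposons that insert at fixed sites in the 28S rRNA gene, and R1 copies also form tandem arrays outside the rDNA.

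Stretches of the sequences on which the results turn were read from the RefSeq copy of dm6. The first line is most of 1 unit of the commonest tandem repeat of the scaffolds among periods of 50 bp or more. A period of 11 bp held more scaffold bases, 176541 bp against 117271 bp for 359 bp. The line runs from positions 209 to 508 of scaffold 211000022278578, which RefSeq assigns to X. It lay inside a peak. The unit measured 359 bp, and the capitals mark its bases 183 to 202, the most alike stretch of 20 among the bases shown, at which scaffold copies matched the unit in 97.6% of aligned bases, against 93.7% over the whole unit.
359-bp unit: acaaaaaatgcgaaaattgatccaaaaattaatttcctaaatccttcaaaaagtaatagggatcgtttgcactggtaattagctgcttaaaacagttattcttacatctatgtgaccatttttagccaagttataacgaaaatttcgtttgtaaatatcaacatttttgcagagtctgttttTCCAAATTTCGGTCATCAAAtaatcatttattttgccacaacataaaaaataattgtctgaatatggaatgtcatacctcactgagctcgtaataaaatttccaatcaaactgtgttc

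The next pair shows a unit copy inside a peak on an X scaffold and a related copy outside peaks on another scaffold. The second came by rule from the scaffold not assigned to X with the most aligned unit bases. Place and peak status therefore cannot be told apart in this pair. On X scaffolds the median identity to the unit was 95.8% inside peaks and 94.9% outside. Both lines cover unit bases 41 to 140, the upper one from the same X scaffold (positions 249 to 348) and the lower one from positions 13345 to 13444 of Unmapped_Scaffold_24_D1707, which is assigned to no chromosome. Capitals mark the 16 of 100 bases at which the copies differ.
Unit copy inside a peak: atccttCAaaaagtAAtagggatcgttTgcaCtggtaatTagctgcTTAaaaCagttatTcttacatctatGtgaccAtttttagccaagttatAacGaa
Unit copy outside peaks: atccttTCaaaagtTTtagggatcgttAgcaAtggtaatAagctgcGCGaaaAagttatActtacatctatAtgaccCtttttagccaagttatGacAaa

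The windows of R1A1, the annotated R1 element, that were most and least often inside peaks on X scaffolds are shown next, with no capitals because no base was singled out. The first is element bases 801 to 900 on the minus strand of X3X4_mapped_Scaffold_6_D1712 (positions 30098 to 30197), the scaffold with the most peaks. The second is element bases 1 to 100 on scaffold 211000022280526 (positions 1445 to 1544). These 100 bases lay outside peaks, while 69.4% of all R1A1 bases of that scaffold lay inside.
R1A1 bases 801 to 900: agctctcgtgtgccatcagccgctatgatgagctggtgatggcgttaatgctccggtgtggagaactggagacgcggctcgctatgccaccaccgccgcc
R1A1 bases 1 to 100: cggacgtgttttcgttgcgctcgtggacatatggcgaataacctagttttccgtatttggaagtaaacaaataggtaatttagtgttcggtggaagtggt

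Scaffolds assigned to X carried most of the peaks. RefSeq assigns 446 scaffolds to X, and 417 of them held a peak (93.5%, 95% Wilson interval 90.8 to 95.4), with 977 peaks, or 78.4% of all scaffold peaks. Their non-N sequence lay inside peaks over 60.2% of its length. Of 978 scaffolds assigned to no chromosome, 106 held a peak (10.8%, 9.04 to 12.9), and 2.32% of their sequence was covered by 190 peaks. The 66 scaffolds assigned to X or Y without a choice between them stood in between, with a peak on 33 (50.0%, 38.3 to 61.7) and 12.1% of their sequence covered.

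**Figure D1:**
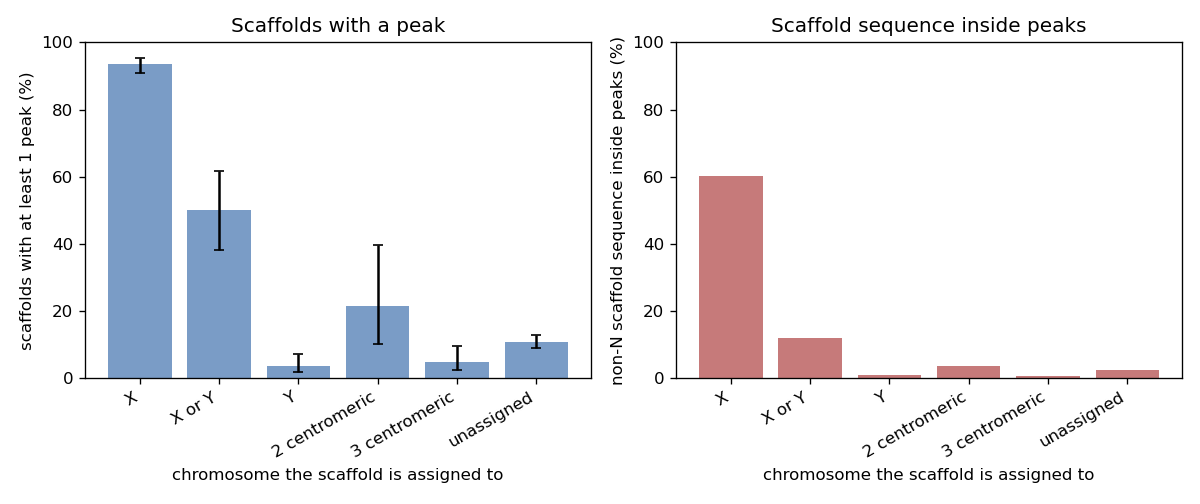
Share of scaffolds with at least 1 peak (left, %, bars with 95% Wilson intervals) and share of non-N scaffold sequence inside peaks (right, %), by the chromosome to which RefSeq assigns the scaffold. X scaffolds stand at 93.5% and 60.2%, while Y scaffolds stand at 3.52% and 0.816%.

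Scaffolds assigned to Y, a chromosome that female discs do not carry, held 14 peaks on 7 of 199 scaffolds (3.52%, 1.71 to 7.08). These peaks covered 0.816% of Y scaffold sequence. In 11 of the 14 no 75-bp word occurred only once in the build. Of the repeated words in all 14, 90.5% had an identical copy on an arm, on the rDNA or on the mitochondrial genome. The arms counted include Y: 33.9% had a copy on the Y arm and 68.5% on the X arm, and a word can count for several arms. The share with a copy off Y was not computed. The widest was a 1991-bp peak at positions 3990 to 5980 of Y_mapped_Scaffold_26_D1717, made wholly of the LTR retrotransposon gypsy, in which no word occurred once and the median word had 7 copies. Scaffolds assigned to the centromeric region of chromosome 3 held 11 peaks on 7 of 144 scaffolds, and those of chromosome 2 held 12 peaks on 6 of 28.

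The contrast between X scaffolds and all others was also seen within scaffolds of like length. Among X scaffolds of 1 to 2 kb, 260 of 282 held a peak (92.2%, 88.5 to 94.8), and among those of 2 to 5 kb it was 143 of 148 (96.6%, 92.3 to 98.5). Scaffolds of the same lengths assigned elsewhere held a peak in 86 of 857 cases (10.0%, 8.20 to 12.2) and in 42 of 408 cases (10.3%, 7.71 to 13.6). At 20 kb and over, 17 of 41 scaffolds not assigned to X held a peak, but only 0.912% of their sequence was inside peaks. The 5 longest scaffolds with a peak were Unmapped_Scaffold_8_D1580_D1567 (88768 bp, 4 peaks), Unmapped_Scaffold_4_D1555_D1692 (86267 bp, 4 peaks), 3Cen_mapped_Scaffold_1_D1896_D1895 (76224 bp, 2 peaks), Y_mapped_Scaffold_5_D1748_D1610 (73091 bp, 2 peaks) and Y_mapped_Scaffold_12_D1771 (66439 bp, 3 peaks). On these 5 scaffolds 0.664% to 2.37% of the sequence was inside peaks.

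The median width of scaffold peaks was 411 bp (95% interval 354 to 441), and widths ran from 81 to 3330 bp. Peaks on X scaffolds had a median of 459 bp (423 to 486), against 170.5 bp (156 to 226) on scaffolds assigned to no chromosome. Of all scaffold peaks, 247 touched an end of their scaffold and 32 covered a whole scaffold, so their width was bounded by the assembly. On 87 scaffolds at least 90% of the sequence was inside peaks. A single peak was found on 270 scaffolds, 2 peaks on 161, and 3 or more on 145, and neighbouring peaks on 1 scaffold were separated by a median of 109 bp (quartiles 88.3 and 289.5).

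Over all scaffolds together, the peaks differed from the scaffold sequence in their classes. Tandem repeats found by similarity of a sequence to itself made up 37.7% of peak bases and 15.8% of scaffold bases. Further copies of the same units, found by alignment, added 17.58% of peak bases and 6.001% of scaffold bases. Non-LTR retrotransposons, which copy themselves through RNA and lack terminal repeats, made up 32.8% of peak bases and 17.97% of scaffold bases. LTR retrotransposons were the other way round, with 3.69% of peak bases and 36.5% of scaffold bases. Sequence like the rDNA made up 6.19% of peak bases and 1.22% of scaffold bases. Most peak bases lie on X scaffolds, and within these the contrasts were smaller: non-LTR retrotransposons made up 33.97% of peak bases and 32.9% of scaffold bases, tandem repeats 41.4% and 33.6%, their aligned copies 19.9% and 22.02%, LTR retrotransposons 0.829% and 5.04%, and rDNA-like sequence 2.28% and 1.69%.

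**Figure D2:**
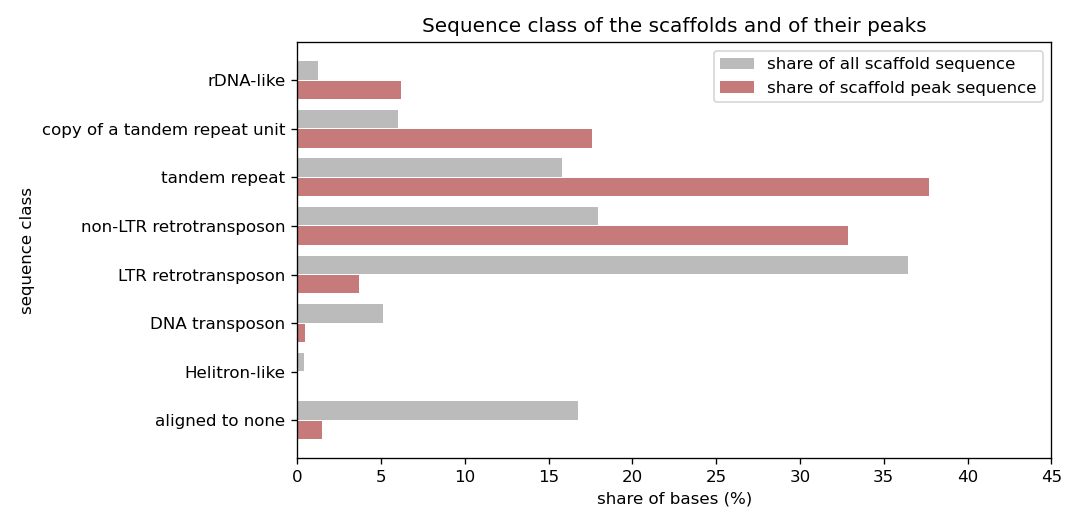
Share of all non-N scaffold bases (grey) and of scaffold peak bases (red) in each sequence class, in percent. Tandem repeats hold 37.7% of peak bases against 15.8% of scaffold bases, and LTR retrotransposons 3.69% against 36.5%. X scaffolds, which hold most peak bases, are pooled with the others.

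Counted by peak, with a class given where it held at least 50% of the bases, 548 peaks were transposon, 381 tandem repeat, 73 rDNA-like and 244 mixed or other. With the aligned copies counted as tandem repeat, an alternative chosen after the data were seen, 593 peaks were tandem repeat and 32 were mixed or other. GC content was 30.1% in these 593 peaks and 53.4% in the transposon peaks. Of the 593, 523 lay on X scaffolds.

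The 359-bp satellite accounted for most of the tandem repeat in peaks. Runs with a period of 355 to 363 bp held 274087 bp of the scaffolds, 90.3% of it on X, and 70.1% of these bases were inside peaks. On X scaffolds the share was 75.5%, and on the others 19.9%. The 5 periods with the most bases in peaks were 359, 358, 357, 360 and 354 bp, with 76.7%, 72.2%, 69.8%, 55.9% and 77.1% of their scaffold bases inside peaks. A shorter period of 66 bp held 5732 bp, 80.2% of it inside peaks. Its commonest unit, with 2084 bp of these runs, shared an unbroken stretch of 62 bases with the 359-bp unit. Other units of 66 bp were not compared. This commonest unit is shown from positions 706 to 771 of scaffold 211000022278341, assigned to X, because it shares that stretch with the satellite.
66-bp unit: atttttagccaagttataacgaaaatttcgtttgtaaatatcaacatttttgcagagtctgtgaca

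The 5 widest scaffold peaks were all made of tandem repeat or its copies and all lay on X scaffolds. Periods of 357 to 359 bp led them, except on 211000022278489, where 66 bp led. The widest ran from position 1 to 3330 of scaffold 211000022280668, which is 3498 bp long. It was followed by positions 1 to 2709 of 211000022279298 (2765 bp), positions 1 to 2590 of 211000022278299 (2591 bp), the whole of 211000022278489 (2557 bp) and positions 296 to 2808 of 211000022280592 (2829 bp). In these peaks 16.8% to 29.1% of the 75-bp words occurred once in the build.

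Copies of the 359-bp unit differed in how often they were inside peaks by where they lay and by how alike they were. On X scaffolds 68.3% of 499475 aligned bp were inside peaks. On scaffolds assigned to no chromosome it was 8.42% of 143076 bp, and on the chromosome arms 3.56% of 179003 bp, with none of the 45905 bp on the X arm. On X scaffolds, copies of 95% identity or more were inside peaks over 77.7% of their length, those of 90 to 95% over 49.0% and those of 85 to 90% over 39.6%. No copy of 95% or more was found on other scaffolds or on the arms, so identity and place cannot be told apart at that end. In the band of 85 to 90%, the one where all 3 had at least 2000 aligned bp, the shares were 39.6% on X scaffolds, 12.6% on other scaffolds and 3.55% on the arms. In the band of 80 to 85% they were 24.8% of only 487 bp, 5.05% and 3.58%. The reference unit was by rule taken from inside a peak on an X scaffold. This favours copies in peaks and copies on X scaffolds in this measure.

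**Figure D3:**
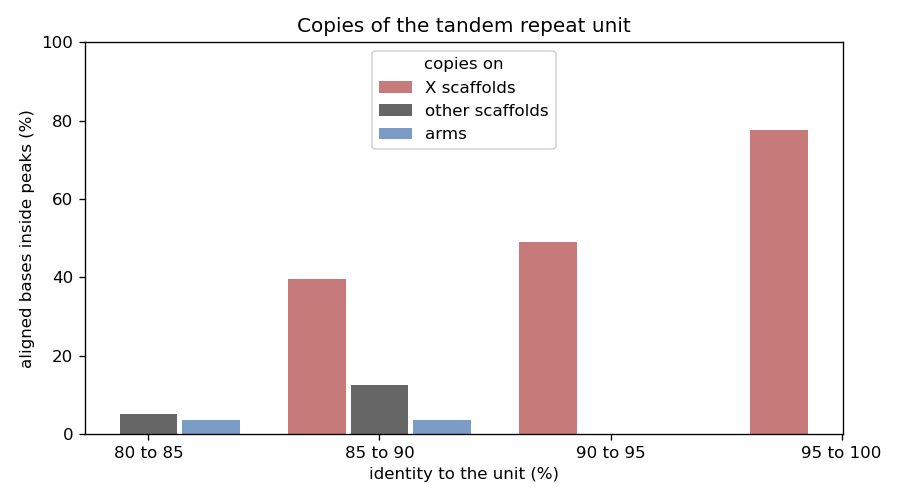
Share of aligned bases inside peaks (%) for copies of the 359-bp unit, by identity to the unit (%), on X scaffolds (red), other scaffolds (grey) and arms (blue). Bands with under 2000 aligned bp have no bar. Copies of 95% identity or more, found on X scaffolds, stand at 77.7%. The unit was taken from a peak on an X scaffold.

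Satellites with short units lay mostly outside peaks, as did most sequence of the scaffolds not assigned to X, where nearly all of these runs lay. Runs with a period of 11 or 12 bp held 253355 bp of the scaffolds and none of it was inside a peak. Only 3 bp of these runs lay on X scaffolds. Nearly all lay on scaffolds of the centromeric region of chromosome 3, where 0.666% of all sequence was inside peaks. Unit length and place therefore cannot be told apart for these runs. The unit of 11 bp with the most bases, and the commonest unit of 12 bp, are shown from scaffold 211000022278164 (positions 52 to 62 and 538 to 549), assigned to the centromeric region of chromosome 3, as the counterpart to the covered satellite.
11-bp unit: ggtcccgtact
12-bp unit: cgtactcggtcc
Runs of 5 bp held 50570 bp, of which 4.96% were inside peaks, and runs of 8 bp held 5382 bp, of which 46.4% were. Off X scaffolds the share of the 5-bp runs was 4.97%, and all 8-bp runs lay there. Both shares were above the 2.30% of all scaffold sequence inside peaks without X scaffolds.

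R1A1 was the leading transposon. Its copies held 269239 bp of the scaffolds, 69.2% of it inside peaks, and it gave 28.1% of all scaffold peak bases. It led 385 of the 548 transposon peaks. The share was 69.2% on X scaffolds and 70.5% of 16325 bp on the other scaffolds. Aligned to 1 annotated R1A1 element of the X arm, copies were inside peaks over 69.3% of 266791 bp on the scaffolds and 71.3% of 140698 bp on the arms, where copies of the satellite unit stood at 3.56%. The 5 scaffolds with the most peaks were all led by R1A1. X3X4_mapped_Scaffold_6_D1712 (33320 bp) held 33 peaks and X3X4_mapped_Scaffold_14_D1732 (27447 bp) held 17, with 71.3% and 83.2% of their R1A1 bases inside peaks. Scaffold 211000022280526 (9368 bp) was 99.3% R1A1 and held 13 peaks, scaffold 211000022280465 (7123 bp, assigned to no chromosome) held 11, and scaffold 211000022279955 (5555 bp) held 10.

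Coverage was uneven along R1A1. On X scaffolds, bases 801 to 900 of the element were inside peaks in 86.3% of aligned bases and bases 2101 to 2200 in 86.0%. The 3 lowest windows were bases 1 to 100 with 34.1%, bases 101 to 200 with 37.8% and bases 1201 to 1300 with 39.4%. Over 54 windows of R1A1 the share ran from 34.1% to 86.3%. Over 36 windows of 10 bp along the 359-bp unit, also on X scaffolds, it ran from 64.96% to 71.3%. Tandem repeat peaks of all scaffolds had a median width of 591 bp, or 475 bp with the aligned copies counted. A typical peak of this class therefore covers every position of the 359-bp unit. The range along the unit is narrow for that reason and cannot be compared with the range along R1A1.

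**Figure D4:**
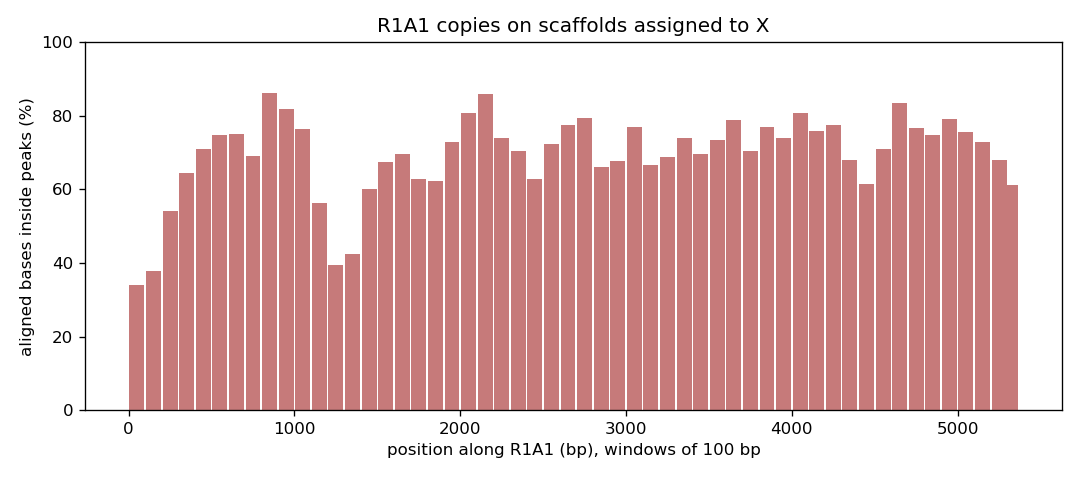
Share of aligned bases inside peaks (%) in windows of 100 bp along R1A1, over its copies on X scaffolds. The share is 34.1% at bases 1 to 100, 86.3% at bases 801 to 900 and 39.4% at bases 1201 to 1300.

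Of the families with at least 10000 bp on scaffolds, the others were all covered less than R1A1. R2, the other element of the 28S rRNA gene, had 42.8% of its 20135 bp inside peaks, 45.3% on X scaffolds and 39.2% on the others. The non-LTR elements F and Rt1b had 10.8% of 70286 bp and 12.6% of 51646 bp, with F at 28.3% on X scaffolds and 7.34% on the others and Rt1b at 21.2% and 11.7%. Among the 10 families with the most peak bases, G had 42.9% of 5387 bp, gypsy 12.0%, baggins 10.96%, Circe 7.16%, 1360 1.39% of 176758 bp and Max 2.69%. These pooled shares mix X scaffolds with the others. G stood at 55.4% on X and 10.9% elsewhere, baggins at 65.9% and 0%, and 1360 at 24.9% and 0.0759%. Of the 2458 bp of 1360 in peaks, 1155 bp aligned to a Stellate gene described below, and only 127 bp lay off X scaffolds. The share of 1360 on X therefore includes Stellate sequence. Circe stood at 15.5% on X and 6.63% elsewhere, and Max at 18.3% and 2.52%, while gypsy stood at 0% of 321 bp on X and 12.2% elsewhere. Of all 63 families of that size, 53 had under 5% inside peaks and 24 had none, and the median was 0.379%. The families without any base in a peak included Idefix (165335 bp), gypsy12 (146865 bp) and HeT-A (104220 bp), a telomeric retrotransposon of the fly. Of their bases, 2729, 204 and 0 bp lay on X scaffolds. Without X scaffolds, 2.30% of all scaffold sequence was inside peaks. On scaffolds not assigned to X and made mostly of a transposon other than R1A1 or R2, it was 1.26%. Low pooled shares of families that lie mostly there are to be read beside these values.

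**Figure D5:**
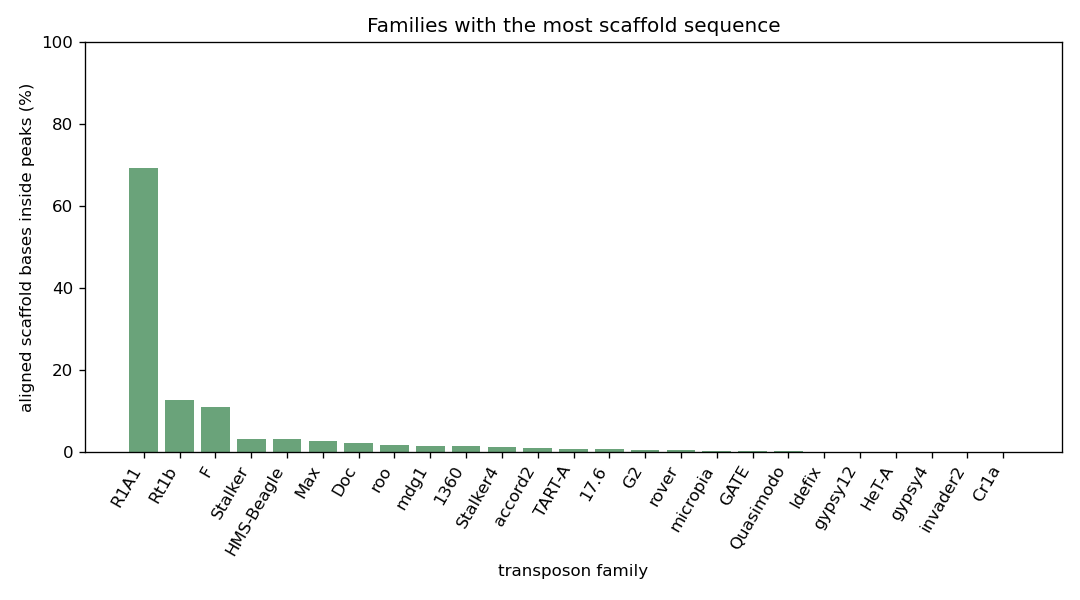
Share of aligned scaffold bases inside peaks (%) for the 25 transposon families with the most scaffold sequence. R1A1 stands at 69.2%, and F and Rt1b at 10.8% and 12.6%. X scaffolds are pooled with the others.

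Of the classes, sequence like the rDNA was the most covered. Of 66429 bp, 61.9% were inside peaks, 80.9% on X scaffolds and 56.0% on the others. Along the rDNA unit, 78.4% of aligned 28S rRNA bases and 85.03% of 18S rRNA bases were inside peaks, against 41.3% of the external transcribed spacer and 57.3% of the intergenic spacer. The 2S rRNA, with 41.4% of 362 bp, stood as low as the external spacer, and the internal transcribed spacers stood at 61.8% and the 5.8S rRNA at 70.1%. The widest rDNA-like peak ran from position 857 to 2904 of scaffold 211000022278724. Of X scaffolds, 100 of 102 made mostly of R1A1 or R2 held a peak, as did 281 of 298 made mostly of tandem repeat or its copies and 26 of 32 made mostly of another transposon. Of the other scaffolds, 33 of 36 that were mostly rDNA-like and 8 of 10 that were mostly R1A1 or R2 held a peak, but only 35 of 208 that were mostly tandem repeat or its copies (16.8%, 12.4 to 22.5) and 69 of 951 that were mostly another transposon (7.26%, 5.77 to 9.08).

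The scaffolds carried few annotated genes, and few peaks lay on them. Of 18 genes on the scaffolds, 2 were touched, by 3 peaks (0.241% of scaffold peaks, 0.0819 to 0.705). The share of scaffold sequence in genes is not given, so this count shows neither an excess nor a lack of peaks on genes. A peak at positions 1472 to 2163 of scaffold 211000022279188, assigned to X, covered 692 bp of SteXh:CG42398, a Stellate gene, of which 516 bp were coding. Of this peak, 99.7% aligned to annotated transposons, led by the DNA transposon 1360. The annotation has 4 elements of 1360 that overlap a Stellate or Su(Ste) gene, and 1155 of the 2458 bp counted under 1360 in peaks aligned to SteXh itself, in 3 peaks. Without bases that align to SteXh, 0.777% of 1360 sequence was inside peaks. The other 2 peaks, 123 and 515 bp wide at positions 76824 to 76946 and 77076 to 77590 of Unmapped_Scaffold_8_D1580_D1567, lay in klhl10 outside its exons, in transposon sequence led by the LTR retrotransposon roo. None of the 10 genes on Y scaffolds was touched, where 0.816% of all sequence was inside peaks.

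Most of the sequence in scaffold peaks could not be assigned to 1 place by a read of 75 bp. Over the whole build 86.1% of 75-bp words occurred once, and in scaffold peaks 30.004% did. The build is mostly arm sequence, so this does not compare the peaks with the scaffold sequence around them. At least 90% of words occurred once in 72 of 1243 peaks with countable words (5.79%, 4.62 to 7.23), and in 148 peaks no word did (11.9%, 10.2 to 13.8). Of the repeated words, 93.1% had a further copy on a scaffold and 38.4% had one on an arm, the rDNA or the mitochondrial genome, most often on X (29.97%). How reads that match several places equally well entered the peaks cannot be read from the list, and their part in the results was not tested.

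The peaks most like these are the 957 in bins of 200 kb of the arms other than Y in which at least 30% of bases are repeat-masked. Tandem repeat peaks were more frequent on the scaffolds, 30.6% against 2.82%, a difference of 27.8 percentage points (95% Newcombe interval 24.96 to 30.5). Transposon peaks were less frequent, 44.0% against 70.6%, a difference of -26.7 points (-30.6 to -22.6). Mostly unique peaks made up 5.79% and 5.97%, a difference of -0.18 points (-2.23 to 1.79), and rDNA-like peaks 5.86% and 4.70%, a difference of 1.16 points (-0.77 to 3.02), so neither was called different. Against arm bins with at least 50% masked bases, the difference in rDNA-like peaks turned to -9.20 points (-15.2 to -4.54). It was 16.9 points (12.1 to 22.3) without X scaffolds, an alternative chosen after the data were seen, and 2.80 points (0.19 to 5.37) with peaks at or above the median width of the list, so its direction rested on the peaks compared. R1A1 led 76 transposon peaks of the arm bins, where F led 93.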

How the data were processed

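The authors deposited 1 peak list with 3 columns, holding the sequence name, start and end of each peak in base pairs and no score. Per the labels and the study's methods, quality-filtered reads were aligned to dm6 with Bowtie2 2.1.0, peaks were called with MACS2 2.1.0 for each ChIP against its input, reproducible peaks were retained and overlapping ones were fused with bedtools. Read depth is not part of the list and was not used here.

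Scaffolds took their chromosome from RefSeq. Words of 75 bp were counted over the build on both strands. Transposons and rDNA-like sequence were found with BLAST+ 2.17.0 (identity of at least 80% over 50 bp) against elements of Ensembl release 115, and tandem repeats as self-similarity at periods up to 600 bp, tested on simulated data. Python 3.11.15, scipy 1.17.1 and statsmodels 0.14.6 gave the intervals. Members, lists and tests were chosen with earlier results of these data known. Named were the 5 scaffolds with the most peaks, the 5 longest with a peak, the 5 widest peaks, the widest of each class, genes touched, and the 10 families and 5 periods with the most peak bases. Alternatives changed word length, identity, class share, width, scaffold length and bin masking.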

Additional observations from a re-analysis of the deposited data

How the results depend on the processing

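No paired analysis was possible because the list joins both ChIP replicates, and for the same reason neither replicate could be left out. Of 86 alternative values of 17 results, 35 stayed within the main interval, on the same side of 0 or within 1.5 times of the main count. A further 3 kept their side of 0 with an interval that then excluded it, 3 changed sign and 45 moved. Shares of sequence had no interval and counted as moved even at small changes, such as 37.7% to 37.8% for tandem repeat. The count of 45 is therefore no measure of how far values changed. The higher share of tandem repeat peaks and the lower share of transposon peaks than in the arm bins held under every alternative run.

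With scaffolds of at least 2000 bp, 8.96% of sequence was inside peaks, the median width was 349 bp, 14.5% of peaks had no unique word, and peak sequence was 52.2% transposon, 30.4% tandem repeat and 3.52% rDNA-like, with 162 tandem repeat, 30 rDNA-like and 97 mixed peaks. With scaffolds assigned to no chromosome, 10.8% held a peak, 2.32% of sequence was covered and the median width was 170.5 bp. With peaks at or above the median width of the list, 24.4% of scaffolds held a peak and 10.3% of sequence was covered, 0% of peaks were mostly unique and 6.42% had no unique word. Their sequence was 34.8% transposon, 40.1% tandem repeat and 6.51% rDNA-like, in 266 transposon, 238 tandem repeat, 44 rDNA-like and 106 mixed peaks, and the differences to the arm bins were 2.80 points for rDNA-like and -0.75 points for unique peaks, both then called.

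Without the 5 scaffolds with the most peaks, 11.6% of sequence was covered, and peak sequence was 33.1% transposon, 40.2% tandem repeat and 6.43% rDNA-like. Of sequence not repeat-masked, 3.11% was covered. At 90% identity the shares were 35.9% transposon, 37.8% tandem repeat and 6.04% rDNA-like. With 50-bp words, 1.44% of peaks were mostly unique and 14.1% had no unique word, and with a limit of 50% of words, 30.01% were mostly unique. With arm bins of at least 50% masked bases, the differences turned to -9.20 points for rDNA-like and 2.55 points for unique peaks.

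2 alternatives were chosen after seeing the data. With aligned copies of the units, tandem repeat made up 55.3% of peak sequence and 593 peaks, and 32 peaks were mixed. Without X scaffolds, 11.2% of scaffolds held a peak, 2.30% of sequence was covered, the median width was 203 bp, 7.81% of peaks were mostly unique and 20.1% had no unique word. There were then 126 transposon, 50 tandem repeat and 35 mixed peaks, and the differences were 16.9 points for rDNA-like and 1.84 points for unique peaks. The cause of these changes was not tested. The list gives no depth, so it cannot be said what depth limits.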
